A study of Mus musculus with 8 samples.

Results

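Adenylyl cyclases are the membrane enzymes that make the second messenger cyclic AMP (cAMP) from ATP. The genes described here are the 8 listed members of this family, Adcy1, Adcy2, Adcy3, Adcy5, Adcy6, Adcy7, Adcy8 and Adcy9, found by symbol among the 55401 genes of the count table. All 8 were found, and all 8 passed the filter on low counts in each comparison. The series measured RNA by sequencing after RNA immunoprecipitation (RIP), in which an antibody pulls a protein and the RNA that comes with it out of a lysate. Its 8 libraries came from C57BL/6 mouse tissue labelled hippocampus and formed 3 groups. CaMKIIβ RIP (3 libraries) used an antibody against CaMKIIβ, a subunit of a calcium-activated kinase abundant at synapses, IgG RIP (3 libraries) used a control antibody, and Input (2 libraries) was RNA without immunoprecipitation. The labels used here give no age, sex, treatment or genotype beyond the strain, and do not say whether libraries came from separate animals, so p-values measure the spread between libraries, which may be technical.

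Members of the family are switched on by the stimulatory G protein and differ in their other inputs. Calcium with calmodulin activates Adcy1 and Adcy8 and, more weakly, Adcy3, which links calcium entry at synapses to cAMP. Adcy5 and Adcy6 are inhibited by calcium and by inhibitory G proteins, Adcy2 and Adcy7 are boosted by G protein βγ dimers, and Adcy9 responds poorly to the plant compound forskolin, which activates the other membrane cyclases. Calcium-stimulated cyclases of the hippocampus are known for their part in long-lasting synaptic potentiation and memory.

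Total counts per library ran from 17273957 to 28138289. One library, CaMKIIβ RIP replicate 2, lay far from the rest, at 223 on the first principal component (51.7% of the variance) against -58.1 to -11.5 for the other 7. That library also had the lowest total count and the fewest genes with a count, 19247 against 24865 to 31152 in the other 7. Granule cell markers of the cerebellum were abundant in the libraries labelled hippocampus: their 7 listed genes summed to 808 to 828 CPM per kb in Input and 928 to 996 in CaMKIIβ RIP, where CPM per kb, the level measure used below, is the count scaled to library size and divided by exon length. The 6 listed Purkinje cell markers, also of the cerebellum, summed to 531 to 539 in Input and 629 to 691 in CaMKIIβ RIP. The 9 markers of hippocampal and telencephalic excitatory neurons summed to 170 to 178 in Input and 211 to 234 in the RIP libraries. Iyd, a hippocampal marker, had 0 counts in at least 1 CaMKIIβ RIP library. In IgG RIP against Input 3 of 7 granule cell markers were higher and 2 lower, and 6 of 9 hippocampal markers were higher and 1 lower (adjusted p under 0.05), against 20.1% higher and 18.7% lower of all genes tested. In Input, Gabra6, a granule cell GABA receptor subunit, was at 168 ± 0.401 CPM per kb (SD, n = 2), and Prox1, a factor of dentate granule cells, at 14.9 ± 1.23. Markers of all these lists were present in every group, and the part that cerebellar or hippocampal cells have in the cyclase levels was not tested. In bulk RNA, fewer cells of a type and less RNA per cell cannot be told apart.

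Adcy1 was by far the most abundant cyclase in all 8 libraries. It lies on GRCm38 chromosome 11 (7063489 to 7178506, plus strand; ENSMUSG00000020431.5), with 12522 exon bases in 22 blocks. Its level was 200.1 and 202 CPM per kb in the Input libraries, 276, 279 and 279 in IgG RIP replicates 1 to 3, and 296, 332 and 282 in CaMKIIβ RIP replicates 1 to 3. Every RIP library was above both Input libraries, and CaMKIIβ RIP replicate 2 was the highest. Ranked by CPM per kb among all genes with a count, Adcy1 was number 46 of 33406 in Input, 34 of 31828 in IgG RIP and 32 of 29023 in CaMKIIβ RIP, and it took 0.275%, 0.336% and 0.366% of all counts in these groups. Exon length here is the union of all annotated exons, so levels per length depend on the annotation.

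The other calcium-stimulated members were much lower. Adcy8 (chromosome 15, 64697084 to 64922296, minus strand; ENSMUSG00000022376.8) was at 6.06 and 5.87 CPM per kb in Input, at 10.2, 10.4 and 10.6 in IgG RIP, and at 9.95, 9.78 and 11.7 in CaMKIIβ RIP. Adcy3 (chromosome 12, 4133103 to 4213525, plus strand; ENSMUSG00000020654.15), known from olfactory cilia and neuronal primary cilia, was at 4.86 and 5.11 in Input, 7.61, 7.91 and 7.65 in IgG RIP, and 8.76, 8.85 and 6.33 in CaMKIIβ RIP. For both genes every RIP library lay above both Input libraries, and CaMKIIβ RIP replicate 3 was the highest for Adcy8 and the lowest of its group for Adcy3. Adcy3 shares 1380 of its exon bases (22.1%) with Cenpo on the opposite strand, and the strand setting of the counting is not given in the sources used here, so its level is less certain.

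Of the calcium-inhibited pair, Adcy5 was the more abundant. Adcy5 (chromosome 16, 35154877 to 35305738, plus strand; ENSMUSG00000022840.9), known as the main cyclase of the striatum, was at 16.1 and 15 CPM per kb in Input, 24.7, 24.0 and 25.2 in IgG RIP, and 27.0, 36.1 and 24.1 in CaMKIIβ RIP. The value of 36.1, from CaMKIIβ RIP replicate 2, stood above all the other libraries. Among striatal markers Penk and Ppp1r1b were at 23.8 and 17.2 CPM per kb in Input, the receptor genes Drd1, Drd2 and Adora2a at 0.507, 1.02 and 0.389, and Adora2a and Gpr6 had 0 counts in at least 1 CaMKIIβ RIP library. The 9 listed striatal markers summed to 45.9 to 46.2 in Input, 53.3 to 57.3 in IgG RIP and 53.3 to 58.7 in CaMKIIβ RIP. Of the 8 tested, 2 were called higher and 1 lower in IgG RIP against Input, against 20.1% and 18.7% of all genes tested. The part of these markers in the Adcy5 level was not tested. Adcy6 (chromosome 15, 98589973 to 98610076, minus strand; ENSMUSG00000022994.9), a widely expressed relative of Adcy5, was at 6.68 and 6.66 in Input, 12.1, 10.7 and 13.6 in IgG RIP, and 12.7, 8.27 and 10.9 in CaMKIIβ RIP. Here CaMKIIβ RIP replicate 2 was the lowest of the RIP libraries, the opposite of its place for Adcy5.

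The members tied to G protein βγ dimers lay far apart. Adcy2 (chromosome 13, 68620043 to 68999541, minus strand; ENSMUSG00000021536.7) was at 15.2 and 14.7 CPM per kb in Input, 22.1, 20.9 and 22.1 in IgG RIP, and 25.2, 20.2 and 22.2 in CaMKIIβ RIP. Adcy7 (chromosome 8, 88272403 to 88329962, plus strand; ENSMUSG00000031659.13), known from platelets and immune cells, was the least abundant member in every library, at 1.79 and 1.79 in Input, 1.91, 1.78 and 1.70 in IgG RIP, and 1.93, 1.60 and 1.49 in CaMKIIβ RIP. It was the only one of the 8 genes whose RIP and Input libraries overlapped, in both comparisons with Input. Of all genes tested, 26.8% had all IgG RIP libraries above Input and 33.8% had them all below. For CaMKIIβ RIP these shares were 18.8% and 28.6%. The 185 to 314 counts of Adcy7 per library were the fewest of the 8 listed genes. The microglial receptor gene Csf1r was at 6.43 ± 0.0984 in Input (n = 2) and 11 ± 0.183 in IgG RIP (n = 3). P2ry12, another microglial marker, went the other way, at 5.67 ± 0.621 in Input and 3.53 ± 1.12 in IgG RIP. The 5 microglial markers matched summed to 25.8 to 26.4 in Input, 34.1 to 39.3 in IgG RIP and 25.6 to 40.6 in CaMKIIβ RIP. Of these 5, 2 were called higher and 1 lower in IgG RIP against Input, against 20.1% and 18.7% of all genes tested. The part of these markers in the Adcy7 level was not tested.

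Adcy9 (chromosome 16, 4287529 to 4420498, minus strand; ENSMUSG00000005580.11) was at 16.5 and 15.3 CPM per kb in Input, 23.7, 23.7 and 26.0 in IgG RIP, and 27.4, 29.1 and 25.4 in CaMKIIβ RIP. All its RIP libraries were above its Input libraries. The counted model and the RefSeq gene shared a fraction of 0.873 of their joint span, the lowest of the 8.

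**Figure D1:**
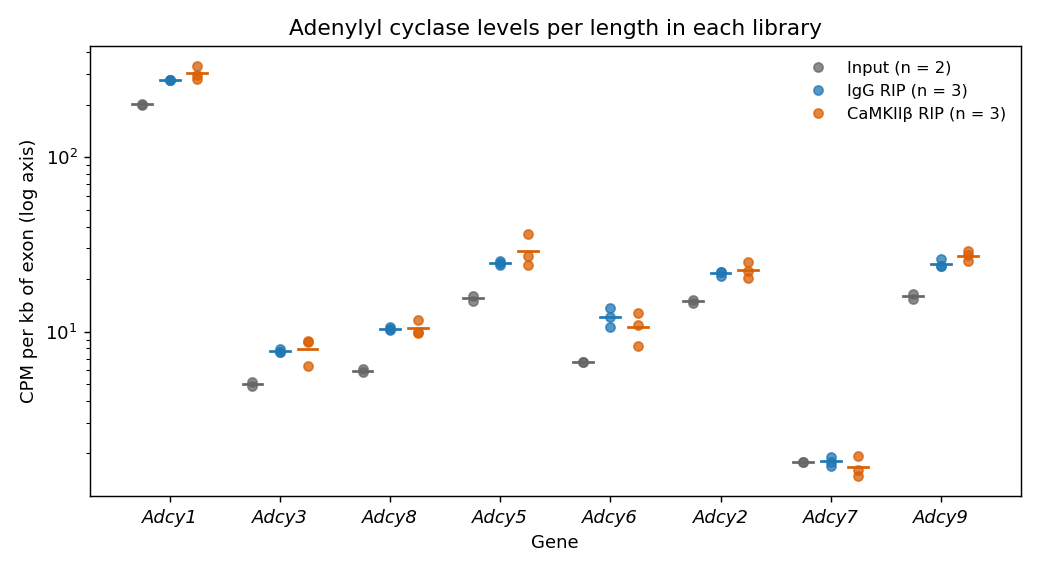
Level of each adenylyl cyclase gene in CPM per kb of exon on a log axis; points are libraries, short lines are group means, and genes are ordered by known regulation (calcium-stimulated, calcium-inhibited, βγ-boosted, Adcy9). Adcy1 lies at 200.1 to 332 in all libraries, the next genes at most at 36.1, and Adcy7 at 1.49 to 1.93.

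The order of the genes was nearly the same in the 3 groups. In IgG RIP it ran Adcy1, Adcy5, Adcy9, Adcy2, Adcy6, Adcy8, Adcy3 and Adcy7, and CaMKIIβ RIP had the same order. In Input, Adcy9 stood before Adcy5, with a ratio of group means of 1.02 and overlapping libraries. Adcy1 was 12.6 times the next gene in Input, 11.3 times in IgG RIP and 10.4 times in CaMKIIβ RIP. Adcy5 and Adcy9 overlapped in all 3 groups, so neither can be placed first. Adcy5 and Adcy2 also overlapped in Input (ratio 1.04), and Adcy6 and Adcy8 in CaMKIIβ RIP (ratio 1.01). The other neighbours in the order had libraries that did not overlap, with ratios from 1.12 between Adcy6 and Adcy8 in Input to 4.78 between Adcy3 and Adcy7 in CaMKIIβ RIP, Adcy1 aside.

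The stretches before the transcription starts of the most and least abundant members, with Adcy5 for comparison, are shown since these genes span the range of levels. The 250 bases before the start are from RefSeq on GRCm38.p6, on the gene's strand. Capitals mark GGGCGG (the GC box bound by Sp1) and TGACG (the core of the cAMP response element) on either strand. The Adcy1 stretch is chr11:7063183-7063432, the Adcy5 stretch is chr16:35154614-35154863, and the Adcy7 stretch is chr8:88282742-88282991, the most upstream of its 3 listed starts. The counted Adcy7 model begins further upstream, at 88272403, so all 3 of its listed starts lie inside the gene. No stretch before the first base of that model was available. The Adcy1 and Adcy5 stretches lie before their counted models, so the Adcy7 stretch is not a like-for-like comparison.
Adcy1: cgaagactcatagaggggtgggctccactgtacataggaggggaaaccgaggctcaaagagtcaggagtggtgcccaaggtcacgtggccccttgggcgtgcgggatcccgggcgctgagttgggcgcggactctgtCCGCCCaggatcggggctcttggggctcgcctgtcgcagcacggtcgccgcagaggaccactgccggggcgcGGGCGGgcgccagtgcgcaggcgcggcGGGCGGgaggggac
Adcy5: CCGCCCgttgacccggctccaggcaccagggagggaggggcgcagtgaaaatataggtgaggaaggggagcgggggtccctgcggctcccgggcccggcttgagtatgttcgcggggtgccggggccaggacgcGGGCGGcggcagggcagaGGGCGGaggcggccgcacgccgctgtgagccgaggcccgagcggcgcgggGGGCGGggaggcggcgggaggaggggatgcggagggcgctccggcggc
Adcy7: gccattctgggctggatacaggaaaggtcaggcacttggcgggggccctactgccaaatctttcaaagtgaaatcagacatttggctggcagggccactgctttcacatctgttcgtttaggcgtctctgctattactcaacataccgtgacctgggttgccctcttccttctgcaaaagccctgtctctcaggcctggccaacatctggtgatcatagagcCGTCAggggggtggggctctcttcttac
Adcy1 held 3 GC boxes and Adcy5 held 4, while this Adcy7 stretch held 0 and had 1 TGACG, 28 bases before the start. Of the other Adcy7 starts 1 held 0 GC boxes and 1 held 1, 30 bases before the start. GGGCGG was in 32.7% of 32851 such stretches, TGACG in 17.8% and the full element TGACGTCA in 1.55%. The full element was in 0 of the 9 starts listed for the 6 members with an entry. The share of G and C was 71.2% for Adcy1, 78.0% for Adcy5 and 54.0% for Adcy7, against a median of 52.4%. These matches describe letters only, and no value of the series measures binding there.

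IgG RIP against Input compares the control pull-down with RNA that was not precipitated, on levels scaled within each library, so it holds nothing on the amount of RNA recovered. All the listed cyclase genes but Adcy7 were higher in IgG RIP, by 1.44-fold for Adcy1 to 1.89-fold for Adcy6. Adcy7 was at 1.80 ± 0.103 CPM per kb in IgG RIP (SD, n = 3) and 1.79 ± 0.00129 in Input (n = 2). In all, 7 of 8 members were called higher and 0 lower, where 20.1% of the 22342 genes tested were called higher and 18.7% lower (38.7% in either direction). The median log2 fold change was 0.68 over the members and -0.02 over all genes tested. Glial markers differed in the same comparison: 5 of 5 astrocyte markers were higher (Slc1a2 at a log2 fold change of 1.5 ± 0.07, Gfap at 1.20 ± 0.07), with sums of 380 to 389 CPM per kb in Input and 783 to 884 in IgG RIP. Of 6 oligodendrocyte markers 4 were higher (Mbp at 1.79 ± 0.06) and 2 lower, with sums of 970 to 985 and 1374 to 1456. Their part in the cyclase differences was not tested. Since the list was made with earlier results in view, these counts describe it and are no independent evidence.

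Among the calcium-stimulated members Adcy8 had the largest difference. Its level was 10.4 ± 0.229 CPM per kb in IgG RIP against 5.97 ± 0.134 in Input, a log2 fold change of 0.86 ± 0.08 (SE; adjusted p = 2.28e-07). Adcy3 had a log2 fold change of 0.69 ± 0.09 (adjusted p = 1.54e-05). Adcy1, at 278 ± 1.75 against 201 ± 1.48 CPM per kb, had one of 0.52 ± 0.05 (adjusted p = 7.0e-07), the smallest of the 7 called. Adcy6 and Adcy5, the calcium-inhibited pair, rose by log2 fold changes of 0.92 ± 0.10 (adjusted p = 1.27e-06) and 0.72 ± 0.07 (2.65e-07). Adcy2, a βγ-boosted member, had 0.59 ± 0.08 (8.42e-06), and Adcy9 had 0.68 ± 0.07 (1.62e-06). For each of these 7 genes all IgG RIP libraries lay above both Input libraries, which held for 26.8% of all genes tested, while 33.8% had them all below.

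Adcy7 had a log2 fold change of 0.06 ± 0.15 (adjusted p = 0.787), with a 95% interval from -0.25 to 0.37. The lower bounds of the other 7 intervals ran from 0.41 (Adcy1) to 0.71 (Adcy6), all above the upper bound of Adcy7. The difference between Adcy7 and the other genes was not tested as such. Of all genes tested, 55.1% had a lower log2 fold change than Adcy7, 81.7% a lower one than Adcy1 and 94.1% a lower one than Adcy6. With library size alone as the scaling, which moved the median of all genes from -0.02 to -0.25, the genes called higher and lower over the whole table went from 4483 and 4170 to 2714 and 6345, and the 7 cyclases were still called higher (Adcy1 at 0.29, Adcy6 at 0.69), and Adcy7 went to -0.16 without passing. At the members' exon lengths (4211 to 12522 bases) the trend of log2 fold change on length over all genes was -0.03 (Adcy2) to 0.11 (Adcy1), and with it removed Adcy1 was at 0.41 and Adcy2 at 0.62.

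CaMKIIβ RIP against Input asks the same of the antibody against the kinase; it shares its Input libraries with the comparison above, so the pair are not independent. Adcy1, Adcy2, Adcy5, Adcy8 and Adcy9 were called higher, 5 of 8 members, and 0 were called lower, where 5.06% of the 22095 genes tested were called higher and 3.4% lower (8.45% in either direction). The fold ran from 1.51 for Adcy1 and for Adcy2 to 1.87 for Adcy5. The median log2 fold change was 0.68 over the members and -0.12 over all genes. Astrocyte markers gave 3 higher and 0 lower of 5 here (median 0.60), and oligodendrocyte markers 4 higher and 1 lower of 6 (median 0.63); their part in the cyclase differences was not tested.

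By role, the calcium-stimulated Adcy1 had a log2 fold change of 0.60 ± 0.10 (adjusted p = 0.0176) and Adcy8 one of 0.82 ± 0.14 (0.0185). Adcy3, at 0.68 ± 0.20 (0.0784), did not pass. Adcy5 had 0.91 ± 0.18 (0.028), the largest of the family, and its relative Adcy6, at 0.67 ± 0.20 (0.0824), did not pass. Adcy2 had 0.60 ± 0.14 (0.0466), Adcy9 had 0.78 ± 0.12 (0.0136), and Adcy7 had -0.09 ± 0.25 (0.906; 95% interval -0.68 to 0.49). For every member but Adcy7 the 3 CaMKIIβ RIP libraries lay above both Input libraries, which held for 18.8% of all genes tested, while 28.6% had them all below.

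These calls rested on particular libraries. Without CaMKIIβ RIP replicate 1 the test called 0 members and 0 genes in all, although the log2 fold changes of the 5 genes stayed between 0.54 and 0.98. Without CaMKIIβ RIP replicate 2, the library that stood apart, it called 7, Adcy3 (0.66 ± 0.18) and Adcy6 (0.89 ± 0.12) among them, and Adcy5 went from 0.91 to 0.78. Without CaMKIIβ RIP replicate 3 it called 5, with Adcy3 (0.83 ± 0.13) in and Adcy2 (0.61 ± 0.15, adjusted p = 0.0742) out. With library size alone as the scaling it called 3 (Adcy1, Adcy8 and Adcy9), and the genes called higher and lower over the whole table went from 1117 and 751 to 683 and 1361. Without Input replicate 1 it called 1 member, Adcy5, and without Input replicate 2 it called 0; in both of these fits the lone Input library was assumed to vary like the RIP libraries.

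**Figure D2:**
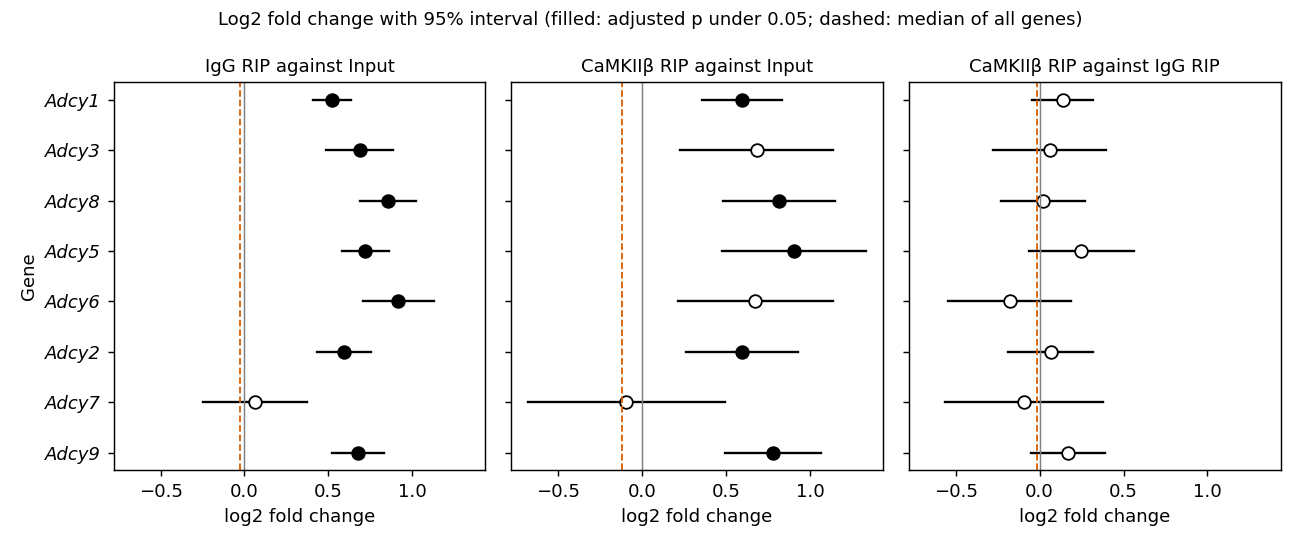
Log2 fold change of each cyclase gene in the 3 comparisons with its 95% interval; filled points have an adjusted p under 0.05 and the dashed line is the median of all genes tested. Adcy7 lies near 0 in all panels, the other 7 genes lie at 0.52 to 0.92 in IgG RIP against Input and at 0.60 to 0.91 in CaMKIIβ RIP against Input, and all 8 intervals include 0 where the kinase and control antibodies are compared.

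CaMKIIβ RIP against IgG RIP asks whether cyclase RNA was at a higher scaled level with the kinase antibody than with the control antibody. By edgeR 0 of 8 members were called, as were 0 of the 20566 genes tested (0.0%, with 721 at an unadjusted p under 0.05); DESeq2 and limma-voom called 0 genes too, with 1247 and 777 such p-values. The members' adjusted p ran from 0.982 to 0.995. Adcy5 had the largest log2 fold change, 0.25 ± 0.14 (SE, n = 3 and 3), with a 95% interval from -0.06 to 0.56. Adcy9 was at 0.17 ± 0.10, Adcy1 at 0.14 ± 0.08, Adcy2 at 0.07 ± 0.11, Adcy3 at 0.06 ± 0.15 and Adcy8 at 0.02 ± 0.11. Adcy7 was at -0.09 ± 0.21 and Adcy6 at -0.18 ± 0.16. The median was 0.06 over the members and -0.02 over all genes.

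Each interval, taken alone, bounds the size of a difference in scaled level, and holds nothing on the amount of RNA recovered. All 8 lay within 2-fold on both sides. The widest upward bounds were 1.48-fold for Adcy5 and 1.32-fold for Adcy3, and the widest downward bounds 1.48-fold for Adcy7 and 1.46-fold for Adcy6. For Adcy1, the best measured member, the interval ran from 1.03-fold lower to 1.25-fold higher. Its CaMKIIβ RIP libraries were all above its IgG RIP libraries (303 ± 25.9 against 278 ± 1.75 CPM per kb, n = 3 each), which was so for 1 of 8 members and for 4.57% of all genes; libraries all below were found for 0 members and 7.33% of genes. Without CaMKIIβ RIP replicate 2 the difference of Adcy5 fell from 0.25 to 0.06 and that of Adcy1 from 0.14 to 0.07, and Adcy6 moved from -0.18 to -0.03.

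Within a library, the share of each gene in the summed level of the family does not depend on the scaling between libraries. Adcy1 made up 75.4 ± 0.686% of the summed CPM per kb in Input (SD, n = 2), 73.0 ± 0.727% in IgG RIP and 73.4 ± 1.03% in CaMKIIβ RIP (n = 3 each). Its share was below both Input libraries in all 6 RIP libraries. Adcy7 went from 0.67 ± 0.000682% in Input to 0.472 ± 0.0316% in IgG RIP and 0.406 ± 0.0589% in CaMKIIβ RIP, again with no overlap. Adcy5 had 5.82 ± 0.281%, 6.47 ± 0.118% and 6.99 ± 0.966% in the same order of groups, and Adcy9 had 5.96 ± 0.292%, 6.42 ± 0.273% and 6.61 ± 0.0805%. Adcy8 had 2.23 ± 0.0464% in Input and 2.73 ± 0.0361% in IgG RIP, without overlap, and its CaMKIIβ RIP libraries (2.19% to 3.05%) overlapped with Input. Adcy6 had 2.5 ± 0.00233%, 3.18 ± 0.359% and 2.6 ± 0.659%; its difference between IgG RIP and Input, 0.681 percentage points without overlap, was the largest rise of the 8, and its difference between the antibodies, -0.581 points with overlap, was the largest in size there. Adcy3 had 1.87 ± 0.0704%, 2.03 ± 0.0568% and 1.93 ± 0.252%, with no overlap between IgG RIP and Input. Adcy2 had 5.59 ± 0.135%, 5.7 ± 0.158% and 5.49 ± 0.855%, with overlap between all groups.

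None of these shares passed a test. Over 24 two-sided exact permutation tests (8 genes in 3 pairs of groups) the smallest p was 0.2, the smallest that 3 against 2 libraries can give, with a Benjamini-Hochberg adjusted value of 0.436. Between CaMKIIβ RIP and IgG RIP, where 0.1 is the smallest possible, the exact p ran from 0.3 to 0.9 and the libraries overlapped for all 8 genes.

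**Figure D3:**
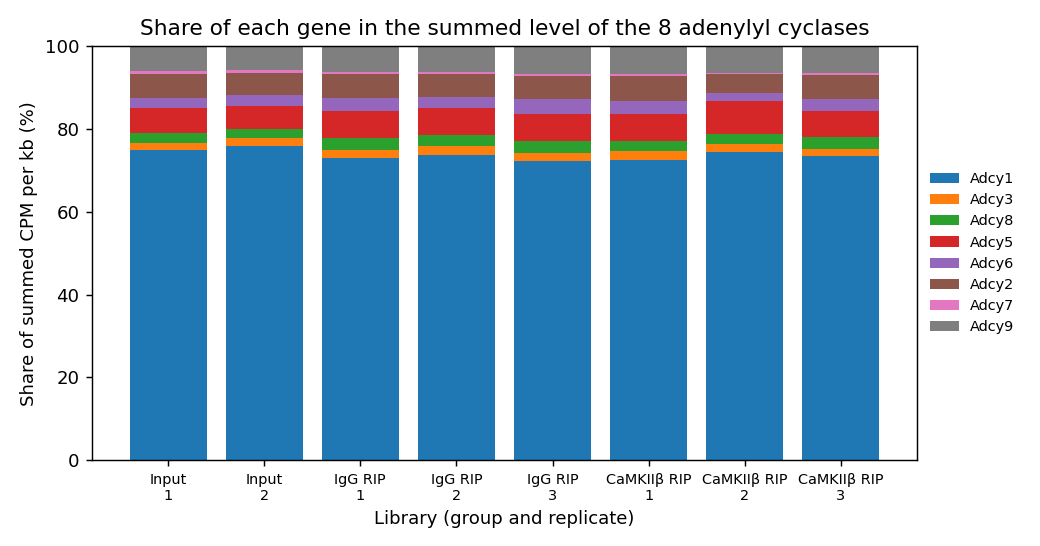
Share of each gene in the summed CPM per kb of the 8 cyclases, as stacked bars from 0 to 100% for each library. Adcy1 takes 72.3% to 75.8% of every bar, and no other gene is above 8.09%.

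The genes whose pattern over the 8 libraries was most like that of each cyclase were found by the distance between log2 CPM values centred on each gene's mean, among 12932 named genes. Those nearest to Adcy1 were Pfkm, a subunit of the glycolytic enzyme phosphofructokinase (0.0827), Nell2 (0.0855) and Tecpr2 (0.0982), where the median distance was 1.02. For Adcy5 they were the lysosomal glucosidase Gaa (0.0943), the T-type calcium channel Cacna1i (0.117) and Cpsf1 (0.13), and for Adcy6 they included the kinesin Kif21b (0.168) and Mink1 (0.169). Nearest to Adcy8 were the AMPA receptor auxiliary subunit Cacng4 (0.106), the Hedgehog receptor Ptch1 (0.13) and Adgrl1 (0.153). Adcy9 was nearest to Ncdn (0.0999), Ap2a2 (0.114) and the calcium pump Atp2a3 (0.12). Adcy2 had Sowahb (0.114), the RNA polymerase II subunit Polr2a (0.125) and Phc2 (0.128), and Adcy3 had Rubcn (0.0989), Chsy1 (0.126) and Ppp1r16b (0.171). The neighbours of Adcy7 were Narf (0.13), Lman2l (0.131) and Rnf4 (0.139), with log2 fold changes of 0.01, -0.04 and 0.13 in IgG RIP against Input. Fold changes close to that of the cyclase follow from choosing genes by this distance, so they are no separate evidence.

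The wider cAMP pathway, in 10 lists of 85 genes of which 82 were matched, held genes that changed in both directions. Of the 81 genes tested in IgG RIP against Input 34 were called higher and 18 lower, with a median log2 fold change of 0.24, where 20.1% of all genes tested were higher and 18.7% lower; the same shares stand behind the counts per list below. In CaMKIIβ RIP against Input 5 of 81 were higher and 2 lower, near the 5.06% and 3.4% of all genes tested, and between the 2 antibodies 0 of 81 were called. The remaining cyclases were scarce: Adcy4, with 0.954 ± 0.131 CPM per kb in IgG RIP (n = 3) and 0.709 ± 0.142 in Input (n = 2), and the soluble cyclase Adcy10 were called in none of the comparisons.

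Upstream of the cyclases, 4 of 7 G protein α subunit genes were higher and 2 lower in IgG RIP than in Input. Gnaz (0.68 ± 0.09) and Gnao1 (0.51 ± 0.06), of the inhibitory class, were higher, and the inhibitory Gnai3 (-0.57 ± 0.16) was lower, as it was in CaMKIIβ RIP against Input (-0.80 ± 0.17, adjusted p = 0.0324). Gnas, which encodes the stimulatory subunit, was at 0.58 ± 0.13, but other gene models lie across its locus, so its counts are uncertain. Of 5 β subunit genes 2 were lower, Gnb5 (-0.36 ± 0.09) and Gnb1 (-0.30 ± 0.06), and 0 were higher. Of 18 receptors tested 5 were higher and 2 lower, with the dopamine receptor genes Drd2 at 1.10 ± 0.25 and Drd5 at -1.10 ± 0.38, the PACAP receptor Adcyap1r1 at 0.67 ± 0.06 and the GABA-B subunit Gabbr1 at 0.64 ± 0.06. Of the calmodulin genes, Calm3 was higher (0.46 ± 0.07) and Calm2 lower (-0.75 ± 0.06).

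Downstream, 4 of 6 protein kinase A subunit genes were higher and 2 lower, among them the regulatory subunits Prkar2a (0.64 ± 0.08) and Prkar2b (-0.63 ± 0.14), Prkar1a (0.33 ± 0.06) and the catalytic Prkaca (0.30 ± 0.07). The anchoring proteins gave 4 higher and 4 lower of 10, with Akap6 at 1.15 ± 0.06, Akap12 at 0.80 ± 0.11, Akap1 at 0.58 ± 0.10 and Akap8 at -0.41 ± 0.07. Phosphodiesterases, which break down cAMP, gave 8 higher and 2 lower of 15, with Pde8a at 1.14 ± 0.09, Pde8b at 0.64 ± 0.09, Pde3b at -0.63 ± 0.12 and Pde3a at 0.47 ± 0.09. The cAMP-gated exchange factors and channels gave 4 higher and 1 lower of 6, with Rapgef3 at 0.81 ± 0.10, Hcn4 at 0.73 ± 0.14 and Hcn2 at 0.53 ± 0.07. The CREB family and its coactivators gave 4 higher and 2 lower of 9, with Crtc1 at 0.71 ± 0.07, Crtc3 at 0.60 ± 0.10, Crem at -0.61 ± 0.18 and Creb1 at -0.45 ± 0.08. In CaMKIIβ RIP against Input the pathway genes called higher were Adcyap1r1, Akap6, Pde8a, Crtc1 and Crtc3, and those called lower Gnai3 and Calm2.

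**Figure D4:**
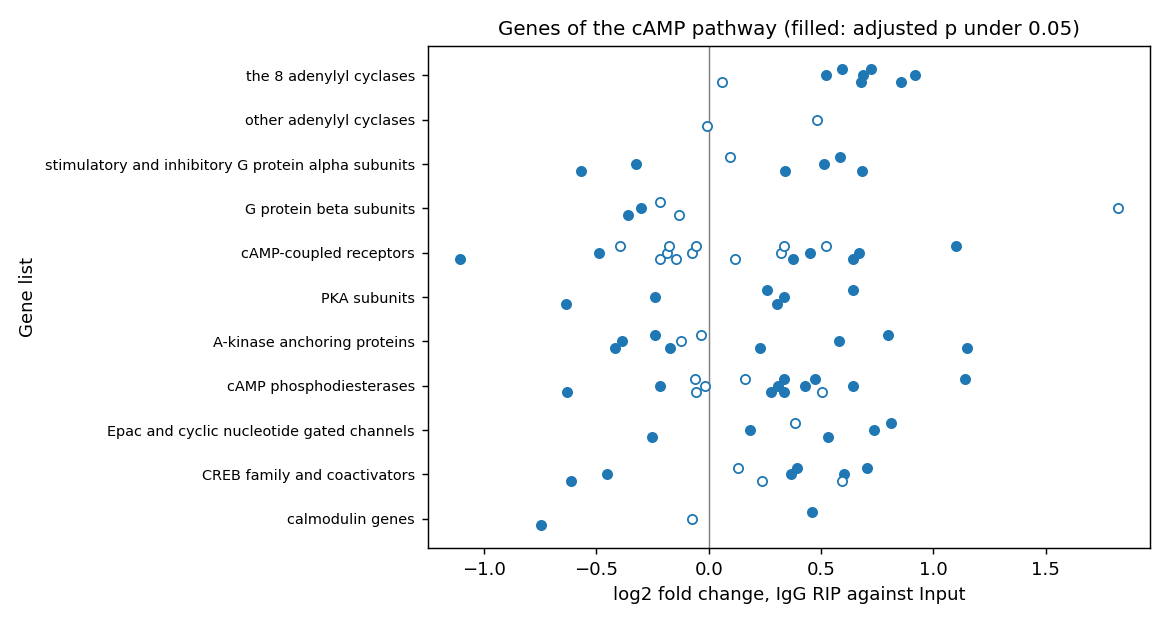
Log2 fold change in IgG RIP against Input of the 8 cyclase genes and of each cAMP pathway list; each point is a gene, and filled points have an adjusted p under 0.05. Of the cyclases 7 lie between 0.52 and 0.92 and Adcy7 at 0.06, while most other lists hold genes on both sides of 0.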

How the data were processed

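The authors deposited raw counts per gene for 8 libraries, and the submitters' processing notes name featureCounts 2.0.1, STAR 2.7.3a, cutadapt 2.10, Trim Galore 0.6.4 and the build GRCm38.p6. The annotation release, the strand setting and how duplicates and multiply mapped reads were handled are not given in the sources used here. Columns were mapped to samples by title, with 0 left over. Genes were named by joining each to the RefSeq gene (GRCm38.p6) with which it had 0.5 or more of the joint span in common, each being the other's best partner and no second partner reaching 0.8 of that share. This named 34240 genes holding 95.4% of counts; Adrb1, Ptger4, Akap2, Cx3cr1 and Aldh1l1 of the lists were not matched.

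Each comparison was fitted on its own libraries over all genes by the robust quasi-likelihood test of edgeR 4.0.16 (R 4.3.3) after TMM scaling (low genes removed by filterByExpr, minimum 10 and total 15 counts). Called means a Benjamini-Hochberg adjusted p under 0.05 over all genes tested. SE is the log2 fold change over the square root of F. Levels are CPM scaled by TMM over all 8 libraries, divided by exon length. The replicate number was no block in the main fit, since the labels name no pairing of libraries. Deviations from group means had correlations of -0.0478 to 0.0621 between same-numbered libraries. With so few libraries per group these cannot show whether libraries were paired. Nearest genes needed a mean log2 CPM of at least 1 (prior count 2). Named pathway genes were up to 4 per list, called in IgG RIP against Input with the largest change, or the most abundant member where none was; Adcy10 and the markers named were added for their role. A few genes that this rule names are not reported here. The members and lists were chosen with earlier results of these data known. The test was run on simulated data first. There it recovered 50% of 2-fold rises in CaMKIIβ RIP against IgG RIP and 46% in CaMKIIβ RIP against Input. In IgG RIP against Input it recovered 84%, so the comparisons differ in power. Alternatives were other scalings (upper quartile, RLE, library size alone), other filters (none, or 10 counts in each library of one group), other tools (limma-voom in limma 3.58.1, DESeq2 1.42.0), 1 fit over all 8 libraries, a replicate block, removal of the exon length trend (loess span 0.5) and each library left out. Permutation tests used scipy 1.17.1.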

Additional observations from a re-analysis of the deposited data

How the results depend on the processing

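The count of called members was 7 in IgG RIP against Input and 0 in CaMKIIβ RIP against IgG RIP under every alternative run, with the replicate block too (7 and 0). In CaMKIIβ RIP against Input it was 5 with all libraries, 3 with library size alone as the scaling, which moved the median of all genes from -0.12 to -0.29, and 7 with DESeq2, no count filter, a fit of all 8 libraries or the replicate block. With single libraries left out it ran from 0 to 7 there, and stayed at 7 and at 0 in the other comparisons. Over all genes, 1117 were higher and 751 lower in CaMKIIβ RIP against Input, and 1854 and 1012 with no filter, 2172 and 1401 with DESeq2, 2070 and 1763 in the fit of all 8 libraries, 1986 and 2219 with the replicate block, 1638 and 602 with the length trend removed, 2471 and 1618 without CaMKIIβ RIP replicate 2, 461 and 384 without Input replicate 1, 256 and 144 without Input replicate 2, and 0 without CaMKIIβ RIP replicate 1 (4607 at an unadjusted p under 0.05). In IgG RIP against Input the fit of all 8 libraries called 2023 and 1653, against 4483 and 4170. None of the 8 genes changed sign where it was called. Of the single-gene values in CaMKIIβ RIP against Input, 92 kept their side of the threshold, 17 lost and 11 gained the call; those losses came from library size scaling and from fits without CaMKIIβ RIP replicate 1 or 3 or without either Input library. The difference in the share of Adcy1 ran from -2.84 to -1.87 percentage points for IgG RIP against Input and from -2.46 to -1.42 for CaMKIIβ RIP against Input with single libraries left out, and from -0.10 to 0.93 for CaMKIIβ RIP against IgG RIP. The lowest counts were those of Adcy7, 185 to 314 per library, which widen its intervals.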

Other observations

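Some markers of non-neuronal cells also differed between IgG RIP and Input, by the same test, in which 20.1% of all genes tested were higher and 18.7% lower. Of 5 astrocyte markers 5 were higher and 0 lower, of 6 oligodendrocyte markers 4 were higher and 2 lower, and of 6 endothelial and mural markers 4 were higher and 1 lower. Microglial markers gave 2 higher and 1 lower of 5, and choroid plexus markers 1 and 1 of 4. Among neuronal lists, cerebellar granule cells gave 3 higher and 2 lower of 7, Purkinje cells 2 and 2 of 6, and striatal projection neurons 2 and 1 of 8. Hippocampal and telencephalic excitatory neurons gave 6 and 1 of 9, and olfactory neurons 0 and 0 of 3. Between the 2 antibodies 0 markers of these lists were called.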
